A study of Schizosaccharomyces pombe with 2 samples.

Results

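The subtelomeric bins of chromosomes I and II were 186 of the 1218 bins with values in a Hi-C contact map of fission yeast (Schizosaccharomyces pombe). They were defined by position. On chromosome I they were the 10 kb bins starting at 590001 or before and at 5180001 or after, and on chromosome II those starting at 390001 or before and at 3940001 or after. By end there were 56 bins at the left end of I, 37 at the right end of I, 37 at the left end of II and 56 at the right end of II. Another 14 bins in these ranges are blank in the map, so no end was measured up to its telomere. The outermost bins with values were 10001 at the left end of I, 5560001 at the right end of I, 30001 at the left end of II and 4490001 at the right end of II.

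All cells were of strain sap1-1, which is mutant for the DNA-binding protein Sap1, and dividing in logarithmic phase. They had grown in rich medium at 26 °C, were moved to 33 °C for 6 h and fixed with 3% formaldehyde for 20 min. Chromatin was cut with HindIII and ligated, and the sequenced junctions report which loci lay close together. The series has 2 biological replicates in 1 group and no control strain. Its values form 1 map, whose header carries a tag for replicate 1 and does not say whether both were pooled. No value is therefore a difference between strains, and no replicate error exists. The 95% Poisson intervals cover counting error of reads recovered from the corrected values, and each SD is a spread over bins, pairs or arms. The map held 37526864 recovered reads, with 7686 to 98119 per bin and a median of 58761.5. The outer 100 kb of the 4 ends had a median of 47141.5 reads per bin, against 59089 in arm bins outside the ranges.

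In fission yeast the telomeres sit at the nuclear envelope in a few clusters, and the chromosome ends next to them carry repeated, gene-poor sequence that is packed as heterochromatin. Inward of this lies a further stretch of compact, weakly transcribed chromatin that holds many genes for nutrient uptake and stress. The ends of chromosome III differ, since they carry the ribosomal DNA repeats.

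The 4 ends share sequence, and a read from one copy can be placed at another. The part of this in the contact between ends was not tested beyond leaving out such bins. The stretch printed here for each end is 1 example, chosen for likeness. It lies in the coding sequence of genes without a symbol, which the reference annotates as transporters or uncharacterized proteins. The search covered only 1 chosen bin at each end. A window had to match exactly and at 1 place per bin in its first 30 bases, and those with many differences were left out. Among the windows kept that are coding at all 4 ends, none had more differences. More divergent shared windows were therefore not looked for. The letters are those of the RefSeq assembly ASM294v3, whose chromosome lengths equal those in the file, and they run 5′ to 3′ along the strand that carries the gene. The 1 base in capitals is the 1 position of 120 that differs among the 4 copies.
right end of I, chrI:5560300-5560419, minus strand: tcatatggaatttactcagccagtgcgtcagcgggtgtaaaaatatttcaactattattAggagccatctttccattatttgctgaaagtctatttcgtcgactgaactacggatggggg
right end of II, chrII:4498048-4498167, minus strand: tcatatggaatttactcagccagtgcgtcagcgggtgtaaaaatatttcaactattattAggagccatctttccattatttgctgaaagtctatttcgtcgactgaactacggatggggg
left end of I, chrI:34586-34705, plus strand: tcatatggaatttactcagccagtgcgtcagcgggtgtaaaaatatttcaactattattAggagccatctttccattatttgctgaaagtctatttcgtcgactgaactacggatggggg
left end of II, chrII:14799-14918, plus strand: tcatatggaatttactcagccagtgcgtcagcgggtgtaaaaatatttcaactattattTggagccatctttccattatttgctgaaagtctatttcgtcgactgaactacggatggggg

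The copies at the left ends lie in blank bins (30001 on I and 10001 on II), whereas those at the right ends lie in bins with values (5560001 on I and 4490001 on II). Of the 30 member bins in the outer 100 kb, 9 had 5% or more of their 30-base sequences in the outer 100 kb of another end. The shares were 94.4% for I 5560001, 75.4% for II 4490001 and 65.2% for I 10001. The next were 23.0% for I 50001, 21.4% for II 50001 and 10.1% for I 5550001. The last 3, I 5530001, II 70001 and II 4470001, had 6.21% to 8.12%.

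The HindIII sites below bracket the largest step at each end. A step is a fall in contact with the other chromosome's ends between neighbouring bins with values. It was taken as a ratio, from bins at 2-fold or more, and rises were not counted. The sites are the nearest on either side of the border of that step whose 60-base surroundings hold no untranslated sequence. The site, AAGCTT, is in capitals, and all 8 are on the plus strand of the same RefSeq assembly.
left end of I, outer side, chrI:98371-98430, between protein-coding genes: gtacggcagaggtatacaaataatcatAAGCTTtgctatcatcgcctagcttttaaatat
left end of I, inner side, chrI:102794-102853, coding sequence of the pyruvate decarboxylase gene pdc101: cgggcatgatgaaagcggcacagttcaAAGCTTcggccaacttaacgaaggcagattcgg
right end of I, outer side, chrI:5441117-5441176, coding sequence of a gene without a symbol: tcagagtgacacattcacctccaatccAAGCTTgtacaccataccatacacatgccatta
right end of I, inner side, chrI:5432158-5432217, coding sequence of the glutathione transporter gene pgt1: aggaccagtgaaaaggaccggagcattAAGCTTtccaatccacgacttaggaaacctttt
left end of II, outer side, chrII:229211-229270, between protein-coding genes: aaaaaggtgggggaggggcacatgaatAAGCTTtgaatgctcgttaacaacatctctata
left end of II, inner side, chrII:231754-231813, coding sequence of the pentose phosphate pathway gene gnd1: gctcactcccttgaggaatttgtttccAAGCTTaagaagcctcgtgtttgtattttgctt
right end of II, outer side, chrII:4451520-4451579, between protein-coding genes: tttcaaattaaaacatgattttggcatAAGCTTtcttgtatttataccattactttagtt
right end of II, inner side, chrII:4448191-4448250, coding sequence of the acid phosphatase gene pho1: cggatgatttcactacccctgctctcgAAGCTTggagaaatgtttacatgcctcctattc

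Contact with the ends of the other chromosome was high in the outer 100 kb of all 4 ends and then fell away inward. For each bin it was measured as the mean corrected value with the outermost 5 bins with values at both ends of the other chromosome, I or II. This was divided by the mean of inter-chromosomal pairs of arm bins, which lie 200 kb or more from an end and 100 kb or more from a centromere. Of the 186 member bins, 96 (51.6%) reached 2-fold. Over all 986 bins of I and II with values the share was 13.7%, and among the 766 arm bins of I and II outside the ranges it was 4.18%. By end, 20 of 56 bins did so at the left end of I, 25 of 37 at the right end of I, 29 of 37 at the left end of II and 22 of 56 at the right end of II. At the inner borders of the ranges the folds were low on both sides. The innermost members had 0.955 (I 590001), 0.615 (I 5180001), 1.40 (II 390001) and 0.658 (II 3940001), and the first bins outside had 0.868, 0.950, 1.26 and 0.929 in the same order of ends.

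**Figure D1:**
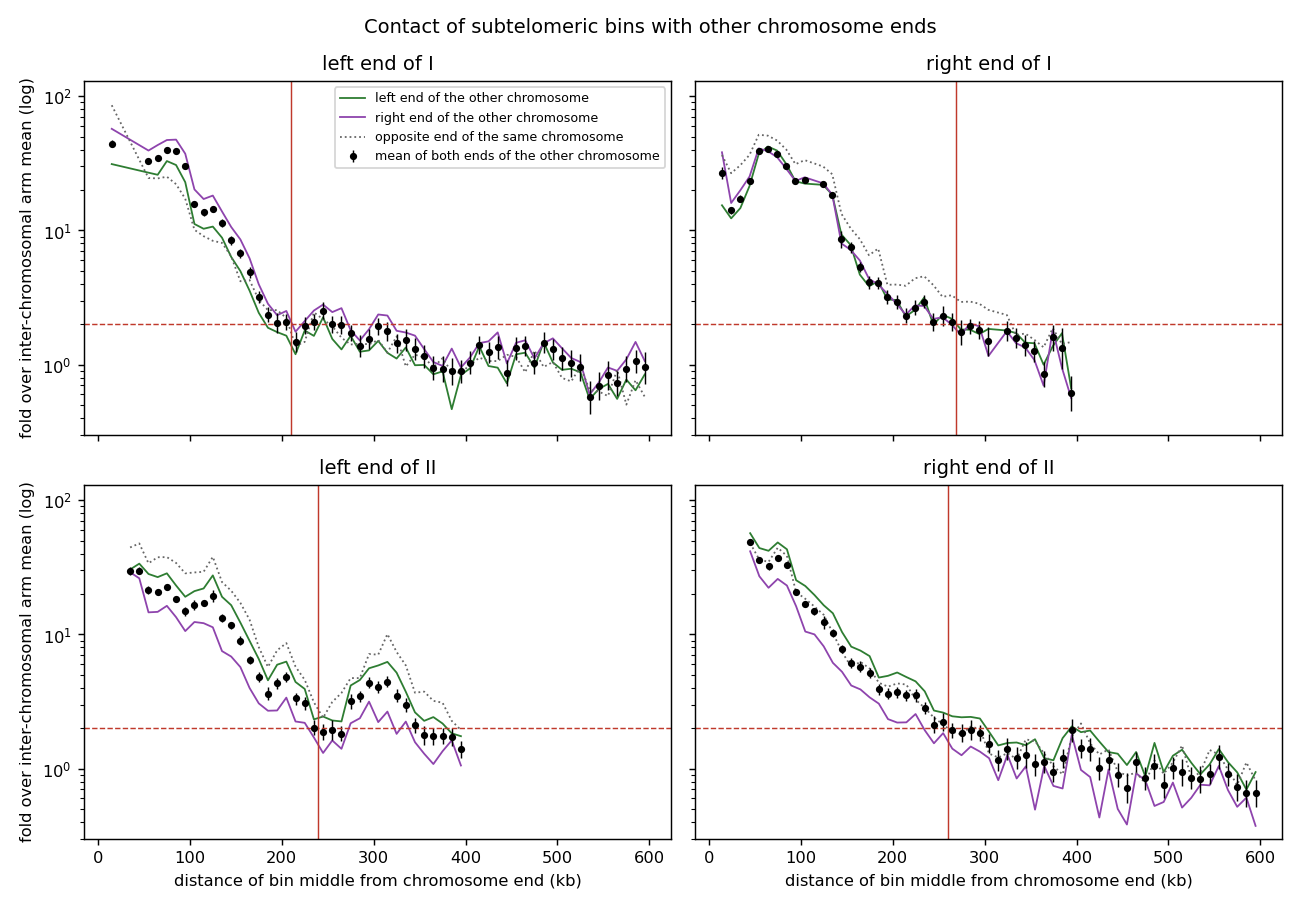
Contact with other chromosome ends (fold over the inter-chromosomal mean of arm bins, log axis) by distance of the bin's middle from the chromosome end (kb), one panel per end. Black points with 95% Poisson intervals are the mean over both ends of the other chromosome, coloured lines each of those ends, and dotted lines the opposite end of the same chromosome. The dashed line marks 2-fold and the vertical line the end of the unbroken run, at 210 kb, 269 kb, 240 kb and 259.8 kb.

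At the left end of I the unbroken run at 2-fold or more held 17 bins with values and reached 210 kb from the chromosome end. Its highest fold was 44.2 in the outermost bin, 10001 (interval 41.8 to 46.8, 1178 reads). Bins 50001 to 90001 stayed between 30.1 and 40.1, the 40.1 being bin 70001. They hold the fluoride exporter gene fex1 (bin 50001), the dihydroxyacetone kinase gene dak2 (60001), the heme uptake gene shu1 with the hexose transporter gene ght3 (80001) and the spore wall gene isp3 (90001). The sharpest step between neighbours came at 100 kb, where bin 90001 had 30.1 (interval 29.0 to 31.3) and bin 100001, with pdc101 and the flocculin-like gene pfl8, had 15.7 (14.9 to 16.5). From there the fold was 8.48 in bin 140001 and 3.20 in bin 170001. The last bin of the run was 200001, with the stress-activated kinase gene sty1 and the calcineurin regulator gene rcn1, at 2.08 (1.80 to 2.39). The next, 210001, with the mitochondrial pyruvate carrier gene mpc2 and erv46, had 1.48 (1.24 to 1.74). Past the run 3 bins again passed 2-fold, from 230001 to 250001, with 2.53 at most.

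At the right end of I the run held 25 bins to 269 kb, and its outermost bins were not its highest. Bins 5560001, 5550001, 5540001 and 5530001 had 26.8, 14.2, 17.3 and 23.3. The next bins inward had more, with 39.0 in 5520001, which holds the flocculin-like gene pfl9, and 40.6 (interval 39.2 to 42.1) in 5510001, which holds the nitric oxide dioxygenase gene yhb1. Bin 5500001, with the sulfate transporter gene sul2 and the alpha-galactosidase gene mel1, had 37.3, and 5490001, with the proline permease gene put4, had 30.0. The contact then stayed at 18.5 to 23.6 from 5480001 to 5440001. At 139 kb it stepped down to 8.66 (7.46 to 9.99) in bin 5430001, which holds pgt1 and hot13, against 18.5 (17.6 to 19.4) in bin 5440001. Bin 5430001 has 1 HindIII site and 13584 reads, so its own value rests on few junctions, but 5420001 next to it had 7.49 from 33376 reads. The last bin of the run was 5310001, with the ribosomal protein gene rpl22 and ofd2, at 2.09 (1.79 to 2.43), and the next, 5300001, with syt22 and the cell wall gene gas5, had 1.75 (1.41 to 2.14). No bin past the run reached 2-fold. Without the correction of the map, the run at this end was only 12 bins long and stopped at the step, at 139 kb.

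Along the left end of II contact fell in small steps and then rose a second time. The run held 21 bins to 240 kb. The outermost bins, 30001 with the hexose transporter gene ght7 and 40001 with fah1 and grt1, had 29.8 and 29.98. Bins 50001 to 120001 stayed between 14.9 and 22.5, so that bin 120001, with the transporter gene abc3, still had 19.4 (interval 17.6 to 21.4, from a bin of 10173 reads). The largest step down, by a ratio of 1.52, was the smallest of the 4 ends. It lay at 230 kb, between bin 220001 at 3.06 and bin 230001 at 2.02 (1.78 to 2.29). Bin 230001 ended the run and holds the autophagy gene atg2 and gnd1. The next, 240001, with the ubiquitin-like gene hub1 and the SNARE gene pep12, had 1.88 (1.64 to 2.14).

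Past the run, 8 bins in a row from 270001 to 340001 were again at 2-fold or more at the left end of II. In order inward the first 7 had 3.17, 3.48, 4.38, 4.05, 4.46, 3.50 and 2.99. The highest, 310001 (4.06 to 4.88), holds arg7, whose enzyme makes arginine, and bin 320001 holds the arginase gene car1. These genes were named after their values were seen. Contact of these 8 bins with the opposite end of II was higher still, 3.68 to 10.1 over the same inter-chromosomal mean, and highest in bin 310001. From 270001 to 320001, contact was 4.17 to 6.25 with the window at the left end of I and 1.82 to 3.16 with that at the right end of I, windows that lie at different distances from their ends. The length of the run here depended on the setting. It was 390 kb at 1.5-fold, 360 kb with the outermost 2 bins as partners and 380 kb with the outermost 10.

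At the right end of II the run held 22 bins to 259.8 kb. The outermost bin, 4490001, had the highest fold of all members, 49.3 (interval 46.8 to 51.9). Bins 4480001 to 4450001 had 32.2 to 37.3, with the galactose genes gal1, gal7 and gal10 in 4480001, pan5 in 4470001 and say1 in 4460001. The largest step was at 89.8 kb, where bin 4450001 had 33.2 (31.7 to 34.7) and bin 4440001, with pho1 and the phosphate transporter gene pho84, had 20.8 (19.97 to 21.7). The last bin of the run was 4280001, with oga1 and ufd1, at 2.23 (1.91 to 2.59). The next, 4270001, with meu7 and eso1, whose protein joins a polymerase to a cohesin acetyltransferase, had 1.93 (1.70 to 2.19). No bin past the run reached 2-fold.

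The intervals of the last bin of the run and the next bin overlapped at 3 ends, whereas those of the left end of I did not. With the lower Poisson bound in place of the fold, an alternative added after the data were seen, the runs reached 190 kb at the left end of I, 239 kb at the right end of I, 230 kb at the left end of II and 239.8 kb at the right end of II. At 3-fold they reached 180 kb, 199 kb, 230 kb and 229.8 kb.

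How far inward the contact reached also differed with the partner window. The 5 bins of a window do not lie at the same distance at each end, since blank bins are passed over. They reach 90 kb inward at the left end of I, 59.1 kb at the right end of I, 80 kb at the left end of II and 89.8 kb at the right end of II. The left end of II met the left end of I at 2-fold or more for 380 kb, and the right end of I for 230 kb. The right end of II likewise met the left end of I for 299.8 kb and the right end of I for 229.8 kb. For the left end of I the run was 210 kb with the right end of II as partner and 180 kb with the left one. For the right end of I it was 259 kb with the right end of II and 239 kb with the left one. Opposite ends of 1 chromosome, on the same scale, met for 210 kb at the left end of I, 329 kb at the right end of I, 390 kb at the left end of II and 259.8 kb at the right end of II. On that scale pairs of bins on opposite arms start higher, with a mean corrected value of 18.0 against 12.5 for inter-chromosomal pairs. Over the mean of opposite-arm pairs the runs were 180 kb, 289 kb, 240 kb and 229.8 kb in the same order of ends, so that of the left end of II was shorter by more than 1.5 times.

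Of the 4 pairs of ends of I and II, contact between the outer 100 kb was highest for the left end of I and the right end of II, at 39.2-fold (interval 38.6 to 39.9, 12918 reads). The left ends of I and II had 26.2 (25.6 to 26.8), the right ends had 24.95 (24.5 to 25.4), and the right end of I and left end of II had 23.7 (23.3 to 24.1). The opposite ends of I met at 36.3 (35.8 to 36.8) and those of II at 32.5 (31.8 to 33.1), over the same inter-chromosomal mean. The highest single pair of bins was I 10001 with II 4490001, at 83.3-fold from 109 reads. Both bins share most of their 30-base sequences with other ends. Without bins that share sequence the highest pair of ends had 35.6. The right end of I and left end of II then had 28.3, more than the 23.4 of the right ends.

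Contact between 50 kb classes of distance mostly fell inward. With the left end of I and right end of II, classes at the same distance had 68.4 at 0 to 50 kb, 34.8 at 50 to 100 kb and 10.3 at 100 to 150 kb. The outermost class holds only 2 pairs of bins, I 10001 with II 4480001 and with II 4490001, and both I 10001 and II 4490001 share most of their 30-base sequences with other ends. At 150 to 200 kb the classes had 4.24, and at 200 to 250 kb 2.60. When only the bin on II lay farther in, at 200 to 250 kb, the outermost 50 kb of I had 3.99, so contact of unlike classes was closer to that of the farther class. Far inward the outermost class was no longer the highest. At 350 to 400 kb from the left end of I, the outermost 50 kb of the left end of II had 0.637, against 1.39 for its class at 150 to 200 kb.

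The right end of I did not follow the outward rise with the left end of II. Its class at 50 to 100 kb met the outermost class of II at 37.2, and its own outermost class met it at 27.7. Farther in on II this was not particular to that pair of ends. With the right end of II at 50 to 100 kb, the right end of I had 24.1 at 50 to 100 kb and 19.6 in its outermost class. With the left end of II at 100 to 150 kb, the left end of I had 21.8 and 16.9. With the right end of II at 50 to 100 kb, however, the left end of I had 34.8 and 40.1. The second rise of the left end of II appeared with the class at 50 to 100 kb of both ends of I. At 300 to 350 kb it had 4.74 with the left end of I and 4.86 with the right end of I, against 3.75 and 3.74 at 250 to 300 kb. At 350 to 400 kb it had 2.17 and 2.09. In these classes of matched distance the ends of I differed by less than the counting intervals.

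**Figure D2:**
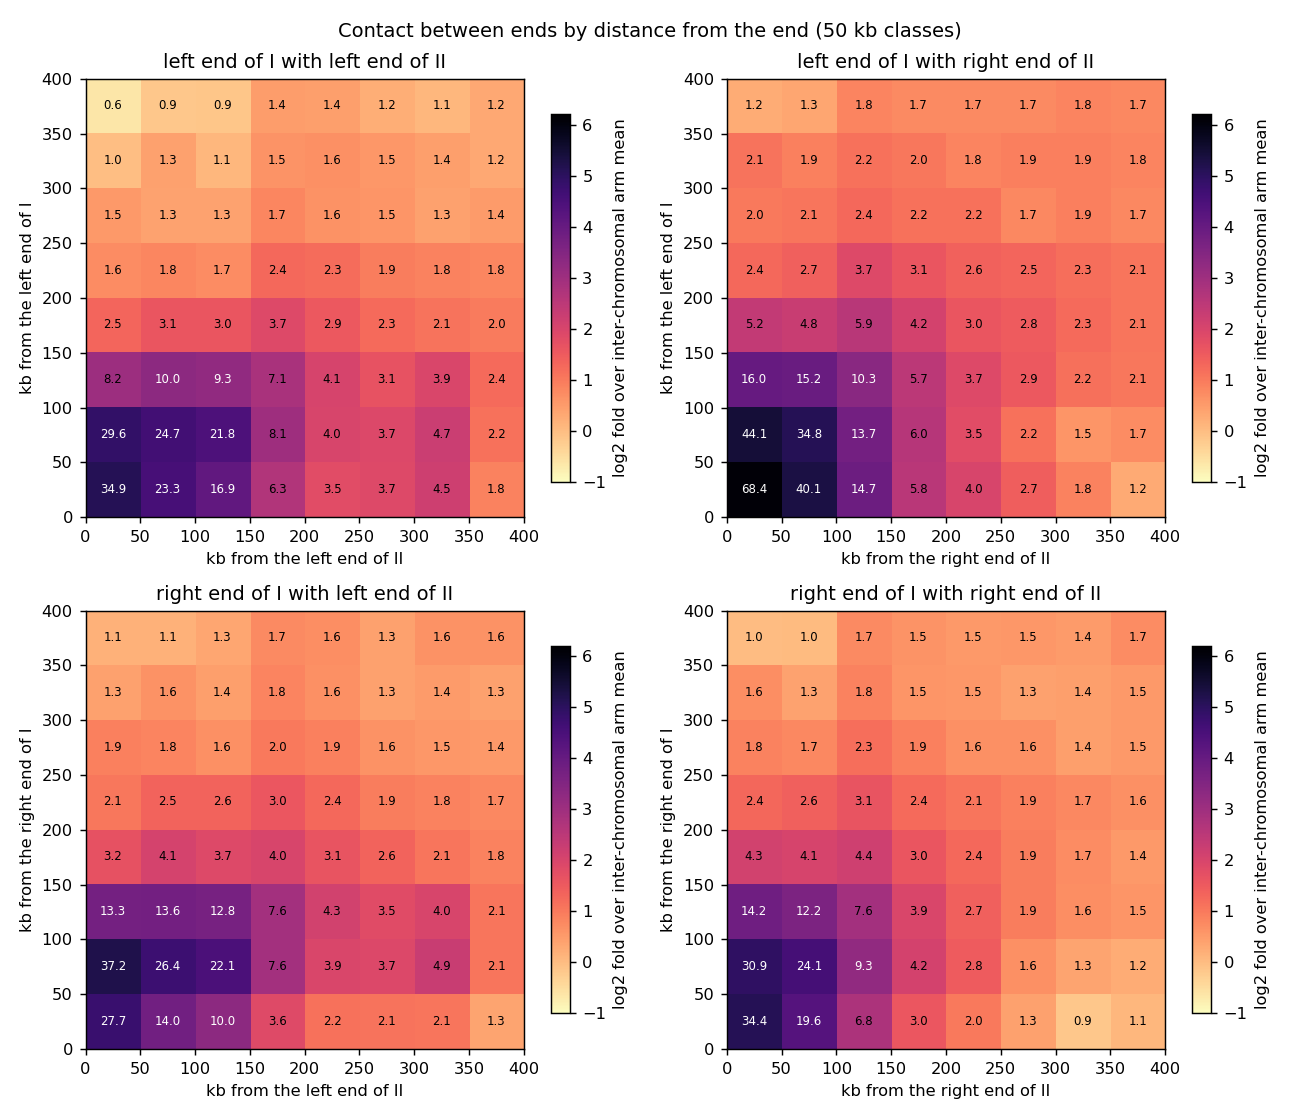
Mean fold over the inter-chromosomal arm mean (colour, log2; numbers, fold) between 50 kb classes of distance from 2 ends, one panel per pair of an end of I (vertical axis, kb) and an end of II (horizontal axis, kb). Values mostly fall from the corner at both chromosome ends, where they are 27.7 to 68.4 (from 2 pairs of bins in each panel with the left end of I), and in the upper and lower left panels the class 50 to 100 kb from an end of I shows the rise of the left end of II at 300 to 350 kb, 4.74 and 4.86.

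The share of a bin's whole corrected signal that went to the terminal windows of the other 3 ends of I and II had a median of 10.0% in the outer 100 kb (range 5.65% to 19.0%). It was 2.51% from 100 to 200 kb and 0.471% farther inward. The highest shares were 19.0% in I 10001, 15.9% in II 4490001 and 14.4% in I 5510001. All bins have 1 common sum after correction.

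Adjacent-bin contact, the value of a bin with its inward neighbour over the mean of adjacent arm pairs, was lower near the ends except at the outermost right end of I. In the outer 100 kb the 28 pairs had a median of 0.774 and a range of 0.539 to 2.17. From 100 kb inward 151 pairs had a median of 0.961, and 935 arm pairs outside the ranges had 0.991 (SD 0.149). Of the 28 outer pairs, 21 lay under the lower quartile of arm pairs (0.897), and of the 151 inner pairs 47 did, where 24.8% of arm pairs outside the ranges do. Only 1 member pair was under 0.5 and 1 was over 2, against 0 of 1053 arm pairs in both cases (0%).

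By end, the mean fold of the outer 100 kb was 0.746 (interval 0.734 to 0.757, SD 0.146, 5 pairs) at the left end of I and 0.728 (0.715 to 0.742, SD 0.122, 7 pairs) at the left end of II. It was 0.850 (0.838 to 0.862, SD 0.157, 7 pairs) at the right end of II. Reads without the correction gave 0.635, 0.334 and 0.542 at these ends and 0.753 at the right end of I. Uncorrected values also depend on how many reads each bin has. The median per outer bin was 48702, 22377, 47400 and 47350 in that order, against 59089 in arm bins outside the ranges. These values therefore cannot show whether the low contact holds without the correction. From 100 to 200 kb the 3 ends had 0.935, 0.811 and 0.964. From 200 to 300 kb they had 1.00, 0.991 and 1.03, near the arm median of 0.991. The right end of I had 0.950 from 100 to 200 kb and 1.11 from 200 to 300 kb.

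The right end of I differed in its first 3 pairs. They had 2.17 (interval 2.08 to 2.27, 1894 reads), 1.76 (1.72 to 1.81) and 1.52, for 5560001 with 5550001, 5550001 with 5540001 and 5540001 with 5530001. The bins hold the pyruvate decarboxylase gene pdc102 (5550001) and gdt1 (5540001). The next 6 measured pairs had 0.615 to 0.794, so that the mean of the outer 100 kb was 1.09 but the median 0.788. Without bins that share sequence with another end, the mean was 0.716. These same outermost bins had the lower contact with the ends of II given above and, as shown further on, the highest contact with centromeres.

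At both ends of I the lowest adjacent pair lay at the border of the largest step. At the left end of I the lowest was 90001 with 100001, isp3 and hhy1 beside pdc101 and pfl8, with 0.626 (interval 0.606 to 0.647, 3598 reads), at 100 kb. Next were 60001 with 70001 (0.638) and 80001 with 90001 (0.709). That of the right end of I was 5440001 with 5430001, 0.606 (0.565 to 0.650, 798 reads), at 139 kb. Next were 5500001 with 5490001 (0.615) and 5510001 with 5500001 (0.713).

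At the left end of II the lowest was 120001 with 130001, abc3 and mug14 beside the phosphate transporter gene pho841 and amf1, with 0.494 (0.441 to 0.550, 322 reads). Bin 120001 has 2 HindIII sites and 10173 reads. Next were 40001 with 50001 (0.539, both bins with 1 HindIII site), of which 50001 holds the fluoride exporter gene fex2 and the enolase gene eno102, and 70001, with aes1, beside 80001 (0.578). At the right end of II the lowest was 4470001 with 4460001 (0.597, 0.560 to 0.636), then 4420001, with pfl5 and the copper amine oxidase gene cao2, beside 4410001, with the retrotransposon Tf2-11 (0.706). The third was far inward, 3960001 with the tubulin gene nda3 and sdh8 beside 3950001 with pph3 and grx4 (0.724). The pair at the largest step of this end, 4450001 with 4440001, was not among the lowest 3 and had 0.726.

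**Figure D3:**
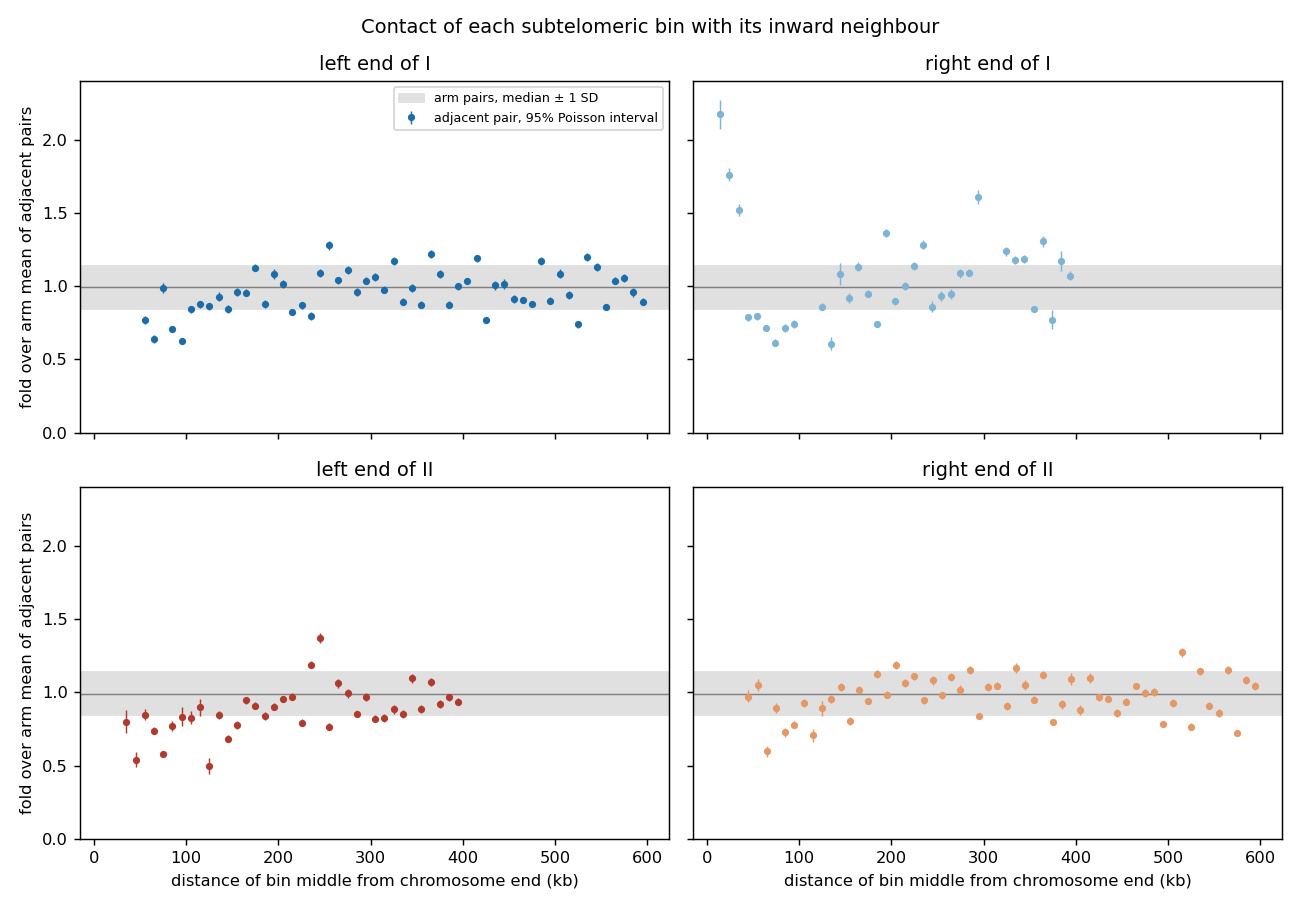
Contact of each bin with its inward neighbour (fold over the mean of adjacent arm pairs) by distance from the chromosome end (kb), with 95% Poisson intervals; the grey band is the median ± 1 SD of adjacent arm pairs. Most points within 100 kb lie under the band, and the first 3 pairs of the right end of I lie above it, at 1.52 to 2.17.

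Over longer separations the outer bins were near or above the level of arm bins. At 50 kb separation the outer 100 kb had 1.20 (left end of I), 1.06 (right end of I), 1.43 (left end of II) and 1.09 (right end of II) times the value of arm bins. At 100 kb separation they had 0.996, 0.998, 1.69 and 0.977. Only the left end of II was above the level of arm bins at 100 kb among these 4 values. Its contact fell less steeply with separation. The slope of log10 contact on log10 separation from 20 to 100 kb was -0.996 over its 37 bins and -0.70 over its outer 200 kb, against -1.16 ± 0.017 over 6 arms (SD, range -1.18 to -1.13). In the outer 200 kb the left end of I also lay outside the range of arms, with -1.06, while the right end of I had -1.18 and the right end of II -1.17. These outer stretches hold 16 to 19 bins and the arms 79 to 304. The spread over arms does not measure that of stretches this short. Over whole ranges the slopes were -1.15 at the left end of I, -1.18 at the right end of I and -1.18 at the right end of II. From 200 kb inward the left end of II had -1.17.

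Contact across a bin was measured with an insulation score, the log2 mean contact between the 5 bins on one side and the 5 on the other, over that of all bins. The deepest drop was the minimum that lay farthest below its higher flanking maximum. Of 178 scored member bins, 32 were minima at least 0.1 deep, which is 18.0%, near the 17.1% (162 of 949) of arm bins outside the ranges. Their median depths were 0.283, 0.397, 0.289 and 0.235 in the order of ends given at the start, against 0.265 for arm minima. The deepest were 0.729 to 1.04 deep, and the deepest arm minimum had 1.56.

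At the left end of II the deepest drop was at 150001, the bin of the maltase gene mal1 and the uridine hydrolase gene urh1, 150 kb from the end, with a depth of 1.04. The score there was -0.44 (interval -0.46 to -0.42, 14669 reads across) and lay at 0.41 or more in the bins from 50001 to 110001. The drop was within 1 bin of this place under 5 of 6 other settings. It is also where contact with the ends of I had come down to 8.99, against 11.7 to 19.4 in the 3 bins just outward.

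At the other ends the place of the drop depended on the setting. At the left end of I it was 150001, with the alcohol dehydrogenase gene adh4 and the pantothenate synthesis gene pan6, at a depth of 0.893 and a score of -0.30. When each value was divided by the arm mean at its separation, an alternative added after the data were seen, the deepest drop was at 90001 with a depth of 0.623, next to the step. The lowest score in that form was -0.32 at 140001. At the right end of I the drop was at 5520001 (pfl9) with 0.729, below the high contact of the outermost bins, whereas by separation it was at 5430001 with 0.613, at the step. That of the right end of II was at 4430001, which has no named gene, with 0.916, and by separation at the same bin with 0.491. Beside blank bins the score rests on fewer distant pairs, and at these 3 ends the depths by separation were lower than those without it. By separation the drop of the left end of II was 1.12 deep, the deepest of the 4.

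**Figure D4:**
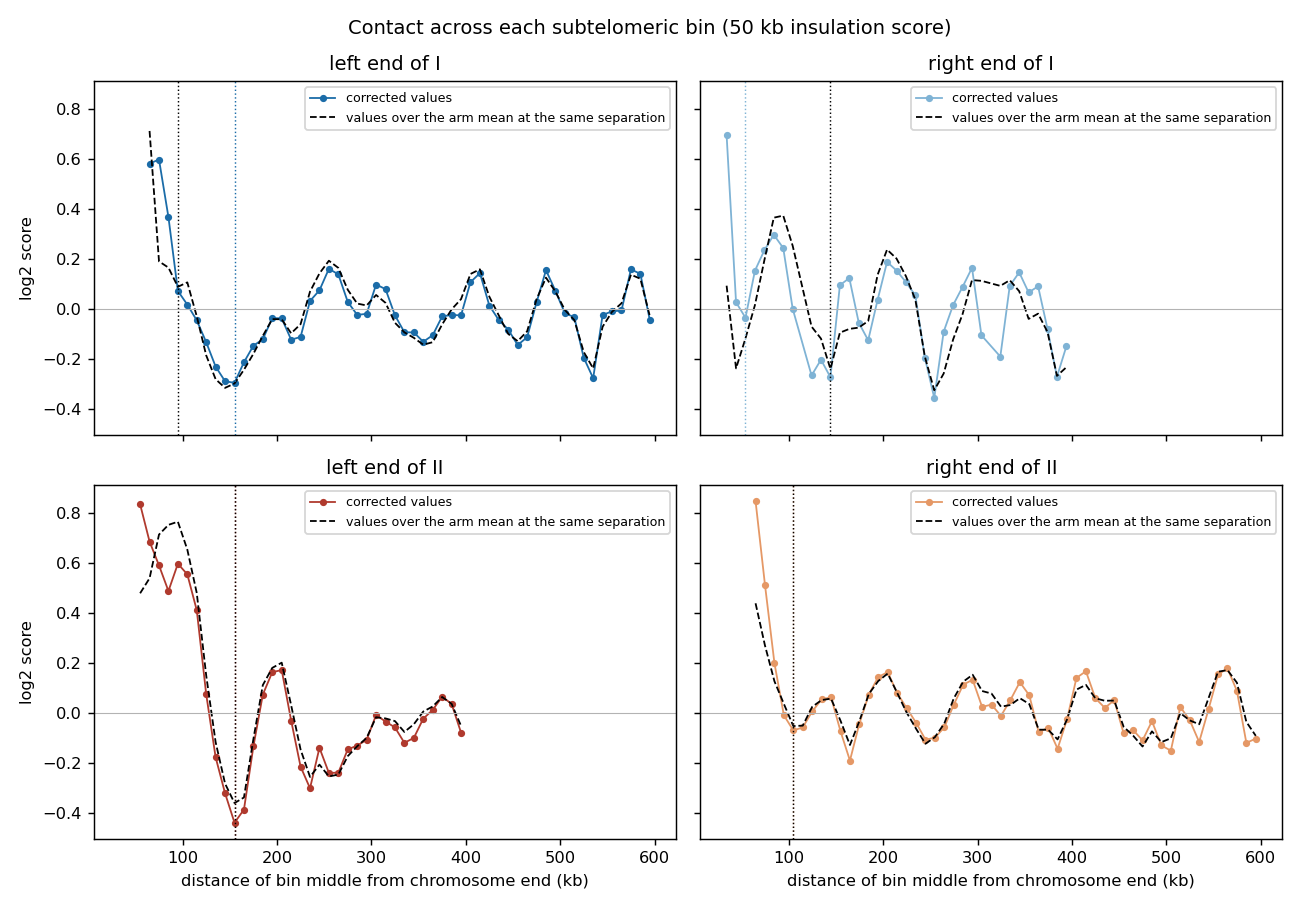
Contact across each bin (50 kb insulation score, log2) by distance from the chromosome end (kb). Coloured lines use the corrected values, dashed black lines the values over the arm mean at the same separation, and dotted vertical lines mark the deepest drop of each. The left end of II falls to -0.44 at 150001 in the corrected values and drops at the same bin in both, while the drops of the left and right ends of I move.

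Contact with the centromeres of the other chromosomes split the ends by arm. The outer 100 kb of the right end of I had 1.91 (interval 1.79 to 2.03) with centromere II and 3.21 (3.00 to 3.44) with centromere III. That of the left end of II had 2.35 (2.18 to 2.53) with centromere I and 2.03 (1.81 to 2.28) with centromere III. Both close the shorter arm of their chromosome. The left end of I had 0.727 and 0.857, and the right end of II had 0.811 and 0.866. Past 100 kb the means over the rest of each end were under 1, with 0.685 and 0.745 at the right end of I and 0.923 and 0.853 at the left end of II. By class, however, contact with both centromeres was 1.51 (1.39 to 1.65) at 100 to 150 kb and 1.12 (1.04 to 1.21) at 150 to 200 kb from the left end of II. It was 1.12 (1.01 to 1.23) at 100 to 150 kb from the right end of I. Along the right end of I the fold with both centromeres was 4.50 in the outermost bin, 5560001, and 3.12 to 3.57 in the next 3, and then 2.05 in 5520001. At the left end of I only bin 10001 was above 1, with 1.57, and at the right end of II only 4480001, with 1.01. Without the correction of the map the outer 100 kb had 1.40 at the right end of I and 1.01 at the left end of II over both centromeres, against 2.56 and 2.19 with it.

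**Figure D5:**
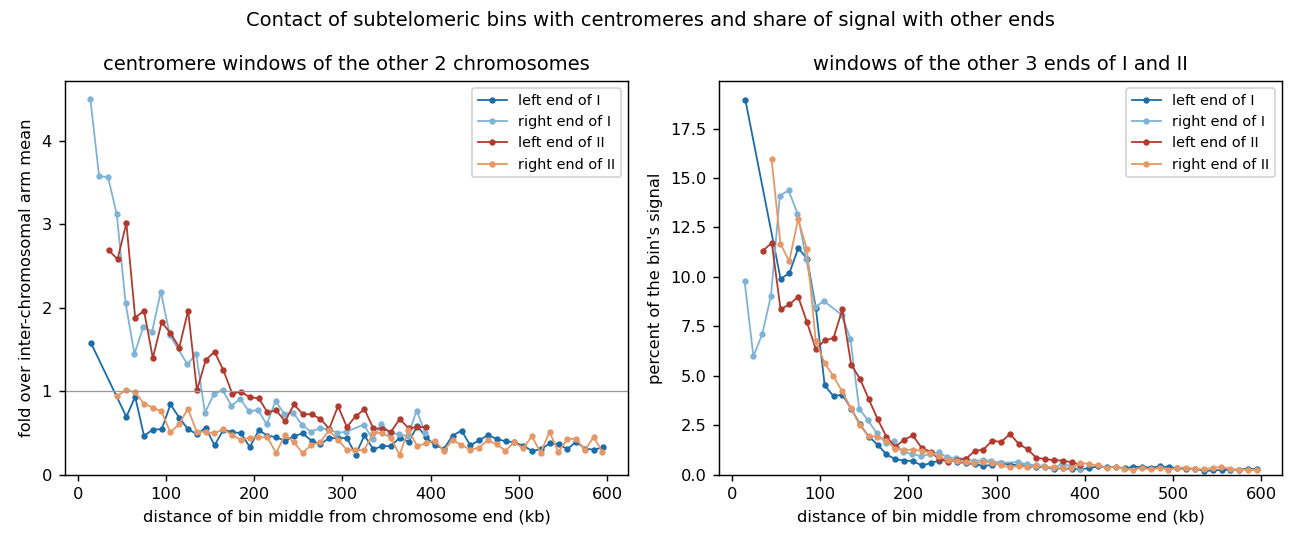
Left, fold of each bin with the centromere windows of the other 2 chromosomes over the inter-chromosomal arm mean; right, percent of each bin's signal that went to the terminal windows of the other 3 ends of I and II; both by distance from the chromosome end (kb). The right end of I and the left end of II stand above 1 on the left, up to 4.50, and the second rise of the left end of II past 250 kb shows on the right.

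The outermost mapped bins of chromosome III did not share the high contact of the other ends. The outer 100 kb of the 4 ends met these bins at 0.584 to 1.15 times the inter-chromosomal mean. Those at the left end of III had more than those at the right end of III with all 4 ends. For the right end of II the values were 1.15 (interval 1.03 to 1.28) against 0.854 (0.747 to 0.972). The ends of III carry the ribosomal DNA repeats, and whether the telomeres of III join the other ends was not tested.

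The outer bins differed from arm bins in what they hold. Their median AT content was 67.0%, against 63.9% in arm bins outside the ranges. They held 3.53 protein-coding genes per bin, against 5.05. LTRs, the remains of retrotransposons, were in 12 of 30 outer bins and in 136 of 949 arm bins, and tRNA genes in 0 of 30 and 87 of 949. From 100 to 200 kb, AT content was 64.1% with 4.69 genes per bin, already close to the arms, while each bin of that class was still at 2-fold or more with the ends of the other chromosome. Whether AT content, gene density or reads per bin have a part in the contact values was not tested.

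Of 15 sugar use genes listed, 8 lay in the ranges, and 6 of these lay within 100 kb of an end. The ranges hold 186 of the 1218 bins with values, and the outer 100 kb of the 4 ends 30. Genes that share a bin are not separate places. The list was chosen with earlier results of these data known, so the count is no test of enrichment. The galactose genes gal1, gal7 and gal10, which turn galactose into a glycolytic sugar, are in bin II 4480001 with 35.6-fold contact (interval 34.6 to 36.7). The genes mel1 and ght3 lay in bins at 37.3 (36.0 to 38.6) and 39.2 (37.9 to 40.5), and ght7 in one at 29.8 (27.9 to 31.8). The other 2, mal1 and the hexose transporter gene ght4, share bin II 150001 at 8.99 (8.34 to 9.67), the bin of the drop. Both end-linked helicase genes, tlh1 and tlh2, lie in blank bins. Of 16 genes for telomere binding, tethering and silencing only set2, the histone H3 lysine methyltransferase gene, lies in the ranges, in bin I 5400001 with 4.10 (3.69 to 4.54). The neighbours of these genes in the same bin cannot be told apart from them at 10 kb.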

How the data were processed

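Each deposited value is a contact signal between a pair of bins 10 kb wide, already iteratively corrected by the authors, per the file headers, and all bins with values had 1 common sum. The submitters' processing notes name Bowtie2 2.1.0 and the build ASM294v2. Whether the map pools the 2 replicates is not given in the sources used here, so it was taken as 1 sample and no test between groups was made. Whole reads were recovered from the values. Of values under 30 reads, 100% came within 0.05 of a whole number, and the total was 99.9% of the 37571192 reads in the header. Poisson intervals are at 95% and cover counting error only. PCR copies were not counted apart.

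Genes, repeats and HindIII sites came from RefSeq (ASM294v3), whose 3 chromosome lengths equal the file's. Of 34 bins with 0 or 1 HindIII site there, 19 had 0 reads within the bin, against 7 of 1184 others. Centromeres were the middle of the longest gene-free stretch.

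Members, windows and gene lists were chosen with earlier results of these data known. The outer 100 kb, the lower quartile of adjacent pairs, the minimum of 9 pairs for a score and the step between neighbours were chosen after the data were seen. Named genes were at most 2 per bin, nearest its middle, in the last bin of each run, the first past it, the deepest drop and the 3 lowest adjacent pairs, with the listed genes; genes of other bins were named after their values were seen. Scripts were tested on simulated data. The shared stretch printed had the most differences among the coding windows that passed the search for likeness described above. It was chosen after the sequences were seen. Python 3.11.15, NumPy 2.4.6, pandas 2.3.3, SciPy 1.17.1 and matplotlib 3.10.9 were used.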

Additional observations from a re-analysis of the deposited data

How the results depend on the processing

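With 1 map, these are values without a test, and "moved" below means by more than the counting interval, 1.5 times for a run, 10 kb for a drop or the SD over arms for a slope. No paired analysis was possible because the series has 1 group and 1 map, and for the same reason no replicate could be left out. Of 43 other values of the reach, 39 stayed within 1.5 times. Reads without the correction gave 12 bins at the right end of I, and the left end of II had 36 bins at 1.5-fold, 33 with the outermost 2 bins as partners and 35 with the outermost 10. A background by distance from the centromeres gave no value for the left end of I. Some of its classes hold no pairs, or too few, besides pairs of members. For the ends of II this background used only the right end of I.

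Mean adjacent contact of the outer 100 kb, in the order left end of I, right end of I, left end of II, right end of II, was 0.635, 0.753, 0.334 and 0.542 for reads without the correction, and 0.904, 1.19, 0.858 and 1.00 for bins 20 kb apart. Without the 5% of bins lowest in reads it was 0.958 at the right end of I and 0.660 at the left end of II. Pairs of the same arm gave 1.07 at the right end of I. Without bins that share sequence, an alternative added after the data were seen, the last 3 ends had 0.716, 0.799 and 0.832.

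The deepest drop of the left end of I moved to 90 kb with 30 kb windows, without the correction and by separation, and to 530 kb from the lower flank. That of the right end of I moved to 249 kb with 30 kb windows and from the lower flank, 139 kb with 100 kb windows and by separation, 129 kb without the correction and 389 kb without the low-read 5% of bins. That of the left end of II moved only to 230 kb without those bins. That of the right end of II moved to 159.8 kb with 100 kb windows and from the lower flank, 69.8 kb without the correction and 379.8 kb without those bins. Depths in the order of ends were 0.58, 0.88 and, for the right end of II, 0.70 with 30 kb windows, and 1.42, 0.87, 1.77 and 1.33 with 100 kb windows. They were 0.61, 1.06, 1.65 and 0.82 without the correction, 0.43, 0.52, 0.61 and 0.25 from the lower flank, and 0.62, 0.61, 1.12 and 0.49 by separation. Without the low-read 5% of bins they were 0.95, 0.47 and 0.31 at the last 3 ends.

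Without the correction, contact between the outer 100 kb was 14.0-fold for the left ends and 24.5, 13.8 and 16.5 for left I and right II, right I and left II, and the right ends. Without bins that share sequence the last 3 were 35.6, 28.3 and 23.4, and without the low-read 5% of bins 33.9, 22.9 and 20.8. Slopes over 20 to 200 kb were -1.36, -1.38, -1.19 and -1.38, where the 6 arms had -1.39 to -1.34, and without the correction the left end of I had -1.17 and the left end of II -1.06. With the centromeres, the 4 ends had 0.450, 1.40, 1.01 and 0.515 without the correction, and the first 3 had 0.643, 2.01 and 1.77 without the low-read 5% of bins. With the ends of III they had 0.491, 0.599, 0.388 and 0.653 without the correction. Slopes and depths kept their signs. Depths are positive by definition and the slopes of all 6 arms were negative too, so this is no check of direction. Some folds crossed 1. Mean adjacent contact of the outer 100 kb at the right end of I was 1.09. It was 0.753 without the correction, 0.958 without the low-read 5% of bins and 0.716 without bins that share sequence.

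Depth limits the borders of the runs, where the last bin of a run and the next rest on 94 to 247 reads, and the bins of few reads or few HindIII sites named in the text.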
